A study of Homo sapiens with 2 samples.

Results

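RNA sequencing counts of 9 genes for homing receptors and lymphoid integrins were compared between REH and 697, a pair of BCP-ALL lines, that is, human leukemia cells arrested at the B-cell precursor stage. The genes were CXCR4, CCR7, S1PR1, ITGA4, ITGA5, ITGA6, ITGAL, ITGB1 and CD44, taken from a given list of names and matched by symbol to the Ensembl IDs of the count files. All 9 were found among the 57773 genes counted. REH is positive for ETV6/RUNX1, with the other ETV6 allele deleted, while 697 is negative for that fusion. Both were grown untreated in serum-supplemented RPMI medium, and each was sequenced as 1 library. There is therefore no measure of the spread between cultures, no p-value is given, and each ratio compares these libraries and not the lines in general.

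Leukemic and normal B-cell precursors are held in the bone marrow by chemokine receptors and adhesion receptors. CXCR4 responds to CXCL12 made by marrow stroma, CCR7 guides lymphocytes to lymph nodes along CCL19 and CCL21, and S1PR1 senses sphingosine 1-phosphate and drives exit into blood. Integrins are pairs of an alpha and a beta chain: the ITGA4, ITGA5 and ITGA6 chains pair with the ITGB1 chain and bind VCAM-1 and fibronectin (ITGA4), fibronectin (ITGA5) or laminin (ITGA6). The ITGAL chain pairs with ITGB2 to form LFA-1, which binds ICAMs, and CD44 is the main receptor for hyaluronan.

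The REH library held 45188375 reads in genes and the 697 library 41097497. Levels are given as CPM, a gene's reads relative to the library total after scaling by the trimmed mean of M-values (TMM), with 95% Wilson intervals, and 3 reads, the smallest number taken as detectable, correspond to 0.0597 CPM in REH and 0.0812 CPM in 697. The ratio is REH over 697 on the log2 scale, with an exact 95% interval from the split of a gene's reads between the libraries. These intervals cover counting error only, and in bulk RNA a share of cells with a transcript and its amount per cell cannot be told apart. Among 9 B-lineage markers, EBF1 (359 CPM in REH and 328 CPM in 697) and PAX5 (792 and 1224 CPM) were abundant in both lines, whereas VPREB1 had 3 reads in REH against 10039 in 697, and CD79B had 24198 reads in REH against 4443 (481 and 120 CPM, log2 ratio interval 1.95 to 2.05). CD79A was the next highest in REH over 697 (655 and 287 CPM, log2 ratio 1.19). The B-lineage markers summed to 3134 CPM in REH and 3648 CPM in 697. Markers of stromal or endothelial cells summed to 33.6 and 65.0 CPM, nearly all of it from COL1A1 and PDGFRB, and megakaryocyte markers to 4.93 and 6.85 CPM. Of the megakaryocyte markers, GP9 had 12 and 93 reads (log2 ratio -3.35, interval -4.40 to -2.53) and GP1BA 236 and 160 (log2 ratio 0.12). PF4 and PPBP had 0 reads in both libraries.

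A gene whose log2 ratio reached 2 or more in size was called higher in the respective line. All 9 genes had at least 10 reads in at least 1 library and could be compared. By this rule 5 of the 9 were higher in 697 (CCR7, S1PR1, ITGA5, ITGA6 and CD44), 1 was higher in REH (ITGAL) and 3 lay in between (CXCR4, ITGA4 and ITGB1). Over all 19145 genes that met the same read minimum, 8.15% were higher in 697 and 12.5% in REH. Of the 9 ratios, 7 were below 0 and 2 were above 0, and their median log2 ratio was -2.26, against 0.05 over all genes tested. The median of the 9 is the ratio of CCR7 itself. Setting the genes with 0 reads in a library to the floor of 3 reads could not move it. Without library scaling every log2 ratio moved up by 0.31, no member changed sign, and CCR7 fell short of the threshold at -1.95.

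**Figure D1:**
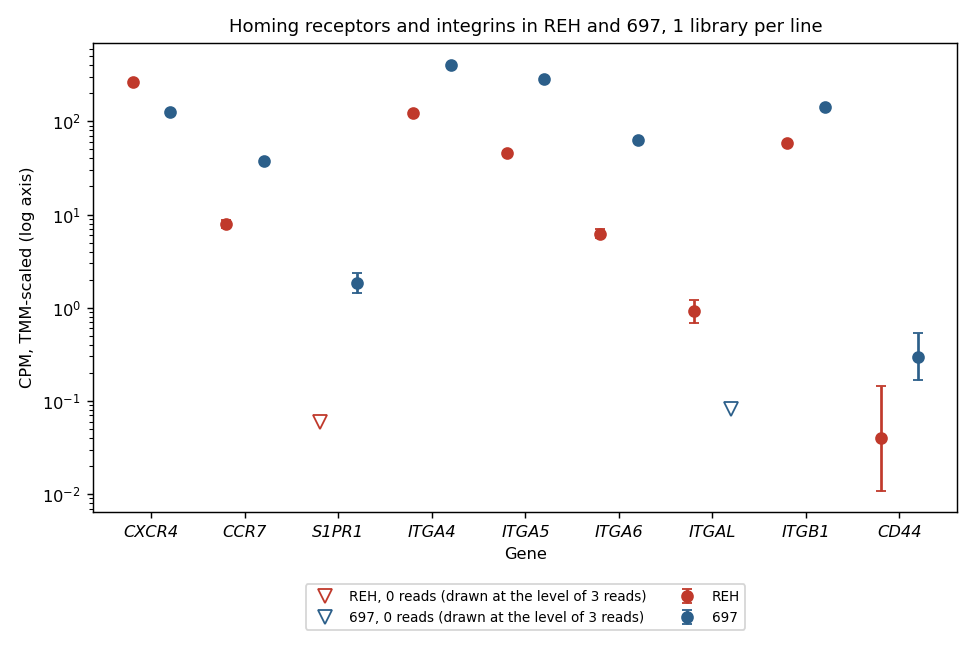
Level of each gene in the REH and 697 libraries, in CPM on a log axis, with 95% Wilson counting intervals where they are wider than the symbol. Open triangles stand for 0 reads and are drawn at the level of 3 reads. CXCR4 and ITGAL lie higher in REH, and the other 7 genes lie higher in 697.

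CXCR4 was the most abundant of the 9 genes in REH. It had 13289 reads in REH (264 CPM, interval 260 to 269) and 4641 reads in 697 (126 CPM, interval 122 to 129). The intervals did not overlap, and the level was 2.10-fold higher in REH (log2 ratio 1.07, interval 1.03 to 1.12), short of the threshold. In REH, 97.0% of the genes tested had a lower CPM than CXCR4, and in 697 the share was 89.6%. CXCR4 lies on chromosome 2 (136114349 to 136119177, minus strand, GRCh38) and no annotated gene overlaps it.

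CCR7 went the other way. It had 395 reads in REH (7.86 CPM, interval 7.12 to 8.67) and 1393 in 697 (37.7 CPM, interval 35.8 to 39.7), a level 4.80-fold higher in 697 (log2 ratio -2.26, interval -2.43 to -2.10). The pair of chemokine receptors thus differed in opposite directions: there were 33.6 CXCR4 reads for each CCR7 read in REH and 3.33 in 697. CCR7 lies on chromosome 17 (40553769 to 40565472, minus strand), also without an overlapping gene.

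S1PR1 was not detected in REH. There were 0 reads in REH and 68 in 697 (1.84 CPM, interval 1.45 to 2.33). Against a floor of 3 reads in REH, its level was 30.8-fold higher in 697. The interval of its log2 ratio lay below -4.61. Even in 697 S1PR1 was a low transcript, above 36.4% of the genes tested. S1PR1 lies on chromosome 1 (101236865 to 101243713, plus strand).

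All 3 members that encode alpha chain partners of ITGB1 were higher in 697. ITGA4 had 6229 reads in REH (124 CPM, interval 121 to 127) and 14961 in 697 (405 CPM, interval 399 to 411). It was the most abundant of the 9 genes in 697 in CPM and 3.27-fold higher there (log2 ratio -1.71, interval -1.75 to -1.67), which fell short of the threshold of 2. ITGA5 had 2288 reads in REH (45.5 CPM, interval 43.7 to 47.4) and 10435 in 697 (282 CPM, interval 277 to 288), a 6.20-fold higher level in 697 (log2 ratio -2.63, interval -2.70 to -2.57). ITGA6 differed most of the 3, with 314 reads in REH (6.25 CPM, interval 5.59 to 6.98) and 2331 in 697 (63.1 CPM, interval 60.6 to 65.7). Its level was 10.1-fold higher in 697 (log2 ratio -3.33, interval -3.51 to -3.17). ITGA4 (chromosome 2, 181457202 to 181538940) and ITGA6 (chromosome 2, 172427354 to 172506459) lie on the plus strand, and ITGA5 (chromosome 12, 54395261 to 54419266) on the minus strand. Each is overlapped by an annotated gene of the opposite strand, and gene counts do not tell apart the splice forms of ITGA6.

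ITGB1, the shared beta chain, differed less than any of these partners. It had 2927 reads in REH (58.2 CPM, interval 56.2 to 60.4) and 5312 in 697 (144 CPM, interval 140 to 148), a 2.47-fold higher level in 697 (log2 ratio -1.30, interval -1.37 to -1.24). ITGB1 lies on chromosome 10 (32887273 to 33005792, minus strand). The interval of its ratio did not overlap those of ITGA4, ITGA5 and ITGA6.

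ITGAL and CD44 were at the lower end of detection. ITGAL had 46 reads in REH (0.915 CPM, interval 0.686 to 1.22) and 0 in 697. Against the floor of 3 reads it was 11.3-fold higher in REH (log2 ratio interval above 3.14). It lies on chromosome 16 (30472658 to 30523567, plus strand) and is overlapped by annotated genes of the opposite strand. When strands were counted apart, 41 reads fell on its own strand and 28 on the other in REH, and 0 and 0 in 697. With a minimum of 50 reads ITGAL was not compared and no member was higher in REH. CD44 had 2 reads in REH (0.0398 CPM, interval 0.0109 to 0.145) and 11 in 697 (0.298 CPM, interval 0.166 to 0.533). Its log2 ratio of -2.65 had an interval of -6.12 to -0.71, which spans the threshold, so that its size is not determined at this depth. With 5 reads added to each count in place of 0.5, it was -1.64 and short of the threshold. CD44 (chromosome 11, 35138882 to 35232402, plus strand) exceeded 2.4% of the genes tested in REH and 16% in 697.

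**Figure D2:**
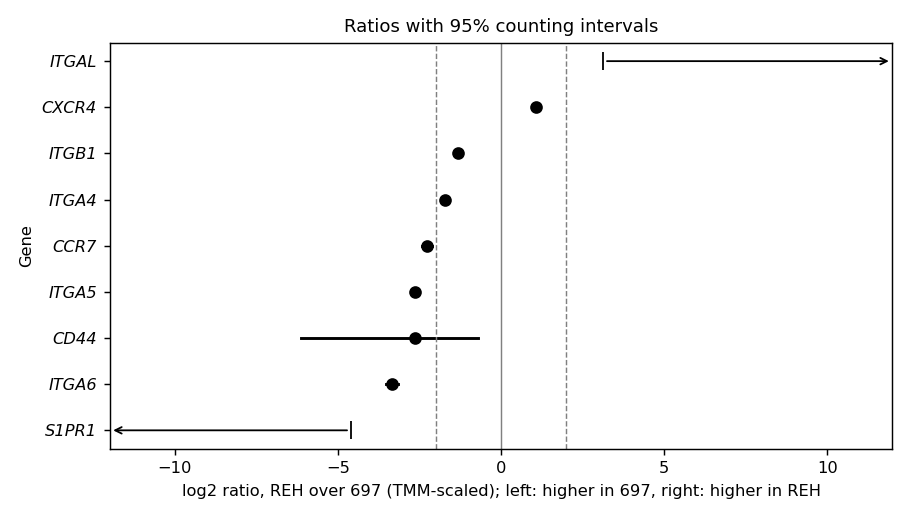
Log2 ratio of each gene, REH over 697, with its 95% counting interval, and dashed lines at a size of 2. Arrows mark intervals that are unbounded because a library had 0 reads. The intervals of CCR7, ITGA5, ITGA6 and S1PR1 lie beyond -2, that of ITGAL lies beyond 2, and that of CD44 crosses -2.

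Levels of different genes were compared per kb of annotated exon (CPM per kb). In REH the order was CXCR4 (91.1), ITGA4 (11.6), ITGA5 (6.17), ITGB1 (4.0), CCR7 (3.13), ITGA6 (0.935), ITGAL (0.0928), CD44 (0.00398) and S1PR1 (0). Of the neighbours in this order, CD44 and S1PR1 had overlapping counting intervals. In 697 the order was CXCR4 (43.3), ITGA5 (38.3), ITGA4 (38.0), CCR7 (15.03), ITGB1 (9.87), ITGA6 (9.45), S1PR1 (0.352), CD44 (0.0298) and ITGAL (0). There, ITGA5 and ITGA4 overlapped, as did ITGB1 and ITGA6. CXCR4 stood 7.83-fold above the next gene in REH and 1.13-fold above it in 697. The order depends on the gene length used. Per kb of the longest transcript, ITGA4 (59.7) passed CXCR4 (57.9) and ITGA5 (56.5) in 697, and ITGB1 passed CCR7 there (25.6 against 17.4). In REH, ITGB1 passed ITGA5 (10.4 against 9.11). Counting intervals were not computed at this length.

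The upstream sequences of the alpha chain genes that differed most, ITGA5 and ITGA6, are shown because among the alpha chain members that pair with ITGB1 these had the largest ratios. The sequences read 5′ to 3′ on the strand of the gene and come from the RefSeq promoter table (GRCh38.p14). The ITGA5 stretch (chr12:54419267-54419516, minus strand) and the ITGA6 stretch (chr2:172427086-172427335, plus strand) end before the start of the gene in GENCODE. The third stretch (chr2:172427337-172427366, plus strand) lies just downstream, spans the GENCODE start of ITGA6 and holds in capitals the only RUNX core (TGTGGT, or ACCACA on the other strand) found in the member windows.
ITGA5 upstream: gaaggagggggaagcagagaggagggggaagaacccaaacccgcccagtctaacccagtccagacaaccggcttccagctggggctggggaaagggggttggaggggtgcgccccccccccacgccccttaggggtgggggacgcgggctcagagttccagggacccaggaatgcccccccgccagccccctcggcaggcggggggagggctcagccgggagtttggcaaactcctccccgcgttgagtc
ITGA6 upstream: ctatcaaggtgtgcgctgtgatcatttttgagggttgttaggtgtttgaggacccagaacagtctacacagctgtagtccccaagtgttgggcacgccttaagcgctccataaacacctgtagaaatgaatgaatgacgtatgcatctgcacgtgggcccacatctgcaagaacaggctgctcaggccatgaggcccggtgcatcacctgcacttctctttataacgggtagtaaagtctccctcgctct
ITGA6 core: tgctactcggcaACCACAattctgtccaca
The ITGA5 stretch was 70.0% G and C and the ITGA6 stretch 50.8%. The other ITGA6 window, which holds the core, was 71.6%. The median was 58.0% over 35116 windows of the 250 bases before an annotated start. A window was found for 7 of the 9 genes (CCR7 and ITGAL had none), 11 windows in all. Of these 11, 1 held the RUNX core, against 3855 of the 35116 windows. A match is a run of letters and says nothing of binding.

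The wider integrin family placed these members. Of 18 alpha chain genes, 15 were compared. Of these, 4 (26.7%) were higher in 697 (ITGA5, ITGA6, ITGA8 and ITGAV) and 4 (26.7%) in REH (ITGAL, ITGAM, ITGA10 and ITGAD). Over all genes compared the shares were 8.15% and 12.5%. The median log2 ratio of the 15 was -0.72. ITGA8, an alpha chain that pairs with ITGB1 and is known from mesenchymal cells and the kidney, had 90 reads in REH (1.79 CPM) and 30908 in 697 (837 CPM). It was 467-fold higher in 697 (log2 ratio -8.86, interval -9.18 to -8.57) and exceeded ITGA4 and ITGA5 there, also per kb of exon (114 CPM per kb). ITGAV, the vitronectin receptor chain, had 2 reads in REH against 1084 (log2 ratio -9.21, interval -12.57 to -7.67). ITGA10, a collagen receptor chain, had 180 and 18 reads (log2 ratio 2.84, interval 2.18 to 3.67).

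Higher in REH were also alpha chains that pair with ITGB2. ITGAM, the myeloid chain of Mac-1, had 403 reads in REH (8.02 CPM) and 0 in 697. Against the floor of 3 reads its level was 98.7-fold higher in REH (log2 ratio interval above 6.32). ITGAD had 21 and 0 reads. ITGB2 itself was lower in REH, with 328 reads against 697 reads in the 697 library (6.53 and 18.9 CPM, log2 ratio -1.53, interval -1.73 to -1.34). Beside these genes, the 6 myeloid markers summed to 271 CPM in REH and 3.11 CPM in 697, and in REH most of it came from MPO (12643 and 12 reads). CSF3R had 920 and 32 reads (log2 ratio 4.38) and CD14 had 29 and 8 (log2 ratio 1.35), whereas CSF1R, with 30 and 61 reads (log2 ratio -1.46), gave most of the sum in 697. LYZ had 1 and 2 reads and FCGR1A 0 and 0. The 6 T-cell markers summed to 1.07 and 0.0541 CPM, most of the REH sum coming from CD3E, which had 45 reads in REH (0.895 CPM) and 0 in 697. CD3D and CD2 had 0 reads in both libraries. Their part in the ITGAL and ITGAM counts was not tested.

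Of 8 beta chain genes 5 were compared, and none reached the threshold in either direction. Over all genes compared, 8.15% were higher in 697 and 12.5% in REH. Besides ITGB1 and ITGB2, ITGB4, the partner of ITGA6 in epithelial adhesion, had 121 and 220 reads (2.41 and 5.95 CPM, log2 ratio -1.30, interval -1.64 to -0.98). ITGB7, which pairs with ITGA4 in the gut-homing integrin, was nearly level, with 319 and 186 reads (6.35 and 5.03 CPM, log2 ratio 0.33, interval 0.07 to 0.60). In each line ITGB1 was the most abundant beta chain per kb of exon among these 4.

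The level of 12 alpha chains known to pair with ITGB1 was summed per kb of exon. In REH, ITGA4 made up 58.4% of this sum, ITGA5 31.0%, ITGA6 4.70% and ITGA8 1.23%. In 697, ITGA8 made up 56.6%, ITGA5 18.9%, ITGA4 18.8% and ITGA6 4.68%. The 3 members together thus held 94.1% of the sum in REH and 42.4% in 697, although each was higher in 697 in absolute level. Per kb of the longest transcript, they held 94.6% and 49.0%. By that length ITGA8 made up 49.2% in 697, ITGA4 23.0% and ITGA5 21.8%. The summed partners were 4.98 times the ITGB1 level in REH and 20.5 times in 697, and 2.90 and 10.1 times per kb of the longest transcript. These are RNA levels, and chain pairing at the cell surface was not measured.

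**Figure D3:**
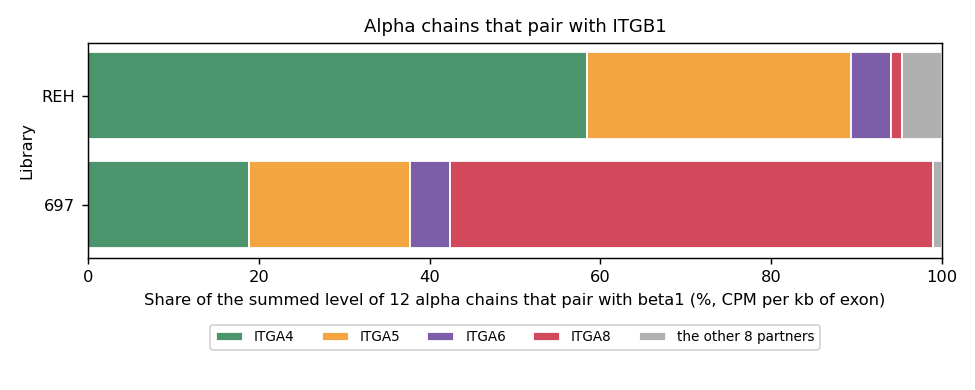
Share of each alpha chain in the summed level of the 12 alpha chains that pair with ITGB1, in percent of CPM per kb of exon, for each library. ITGA4 takes 58.4% of the REH bar, and ITGA8 takes 56.6% of the 697 bar against 1.23% in REH.

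Other receptors of the same families were examined next. Of 22 chemokine receptor genes 8 had enough reads. CCR7 (12.5% of the 8) was higher in 697 and ACKR3 (12.5%) in REH, beside 8.15% and 12.5% of all genes compared. ACKR3, the scavenger receptor that also binds CXCL12, had 199 reads in REH (3.96 CPM) and 1 in 697 (log2 ratio 6.61, interval 4.70 to 12.50). Of 15 genes for sphingosine 1-phosphate receptors and metabolism 14 were compared. S1PR1 and S1PR5 (14.3%) were higher in 697 and S1PR3 and PLPP3 (14.3%) in REH, beside 8.15% and 12.5% of all genes compared. S1PR3 had 210 reads in REH against 14 (log2 ratio 3.42, interval 2.68 to 4.36), while S1PR5 had 3 and 33 reads (log2 ratio -3.70, interval -6.25 to -2.23). PLPP3, a phosphatase that degrades lipid phosphates, had 117 and 0 reads. Against the floor of 3 reads its level was 28.7-fold higher in REH (log2 ratio interval above 4.52). The most abundant receptor of this group was S1PR4 in both libraries, with 4748 and 2894 reads (94.5 and 78.3 CPM, log2 ratio 0.27, interval 0.20 to 0.34). REH thus had abundant S1PR4 reads and 0 reads of S1PR1.

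Regulators of these receptors were compared as a group of 18 genes, 17 with enough reads. Of the 17, 1 (5.88%) was higher in REH and 1 (5.88%) in 697, beside 12.5% and 8.15% of all genes compared. CD69, which binds S1PR1 and removes it from the cell surface, had 584 reads in REH (11.6 CPM) and 0 in 697. Against the floor of 3 reads CD69 was 143-fold higher in REH (log2 ratio interval above 6.86). It was the only gene of this group past the threshold in REH, and its direction was opposite to that of S1PR1. A link between the CD69 reads and the S1PR1 reads was not tested. KLF2, a transcription factor that activates S1PR1, had 77 and 71 reads (1.53 and 1.92 CPM), and the interval of its log2 ratio of -0.33 spanned 0 (-0.81 to 0.16), so that no difference was detectable at this depth. RGS16, a brake on chemokine receptor signalling, had 192 and 1119 reads and was the only gene of the group past the threshold in 697 (log2 ratio -2.98, interval -3.22 to -2.77).

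Of 26 genes that activate integrins from inside the cell or bind their tails, 24 were compared, with 1 (4.17%) higher in REH and 2 (8.33%) higher in 697, beside 12.5% and 8.15% of all genes compared. The other 21 did not reach the threshold, including TLN1 (talin, 464 and 550 CPM, log2 ratio -0.24, interval -0.27 to -0.22) and FERMT3 (kindlin-3, 282 and 310 CPM, log2 ratio -0.14, interval -0.17 to -0.10). Both small ratios turned positive with unscaled totals (0.06 and 0.17). Those that reached it were SKAP2, FERMT1 and PARVB. SKAP2, an adaptor of integrin signalling, had 3156 reads in REH against 10 (log2 ratio 7.79, interval 6.98 to 8.92). FERMT1 (kindlin-1, typical of epithelium) had 0 reads in REH and 948 in 697. Against the floor of 3 reads it was 430-fold higher in 697 (log2 ratio interval below -8.45). PARVB (beta-parvin) had 11 and 967 reads (log2 ratio -6.84, interval -7.91 to -6.06).

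Of the ligands of the members, those of the chemokine receptors had at most 5 reads in a library. CCL19, CCL21 and VCAM1 had 0 reads in both libraries, and CXCL12 had 4 and 5. Of 20 ligand genes 11 were compared. ICAM1 and ICAM5 (18.2%) were higher in REH and FN1 (9.09%) in 697, beside 12.5% and 8.15% of all genes compared. ICAM1, a ligand of LFA-1, had 850 and 150 reads (log2 ratio 2.05, interval 1.81 to 2.32, which spans the threshold). ICAM5 had 203 and 1 reads (log2 ratio 6.64, interval 4.73 to 12.53), and FN1, which encodes fibronectin, had 29 and 157 reads (log2 ratio -2.86, interval -3.51 to -2.30).

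Among 22 genes for selectins, selectin ligands and other homing molecules, 16 were compared. Of these, 5 (31.2%) were higher in REH and 3 (18.8%) in 697, beside 12.5% and 8.15% of all genes compared. Higher in 697 were the tetraspanins CD9 (2555 and 11660 reads, log2 ratio -2.63, interval -2.70 to -2.57) and CD151 (186 and 3079 reads, log2 ratio -4.49, interval -4.71 to -4.28), which associate with integrins, and JAM2 (367 and 1305 reads, log2 ratio -2.27, interval -2.45 to -2.11, and -1.97 with unscaled totals). Higher in REH were CHST2, F11R, ST3GAL6, CD82 and CD99. CHST2, a sulfotransferase of selectin ligands, had 443 and 10 reads (log2 ratio 4.96, interval 4.13 to 6.10), and F11R had 1756 and 148 reads (log2 ratio 3.12, interval 2.88 to 3.38). ST3GAL6 had 195 and 19 reads (log2 ratio 2.88) and CD99 had 9497 and 1610 reads (log2 ratio 2.12).

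**Figure D4:**
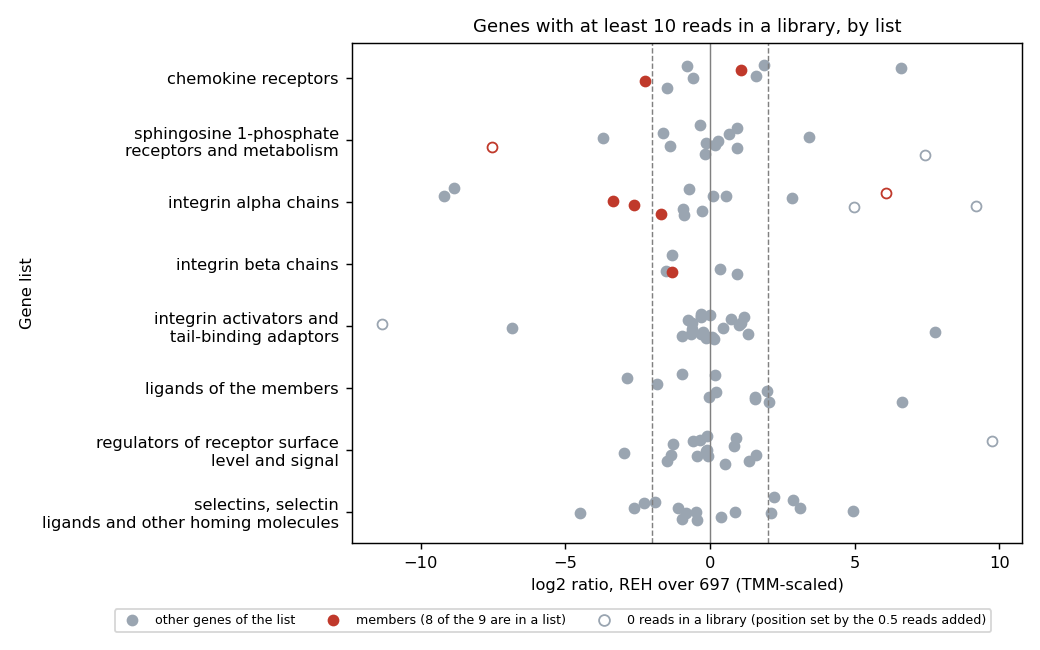
Log2 ratio, REH over 697, of every listed gene that met the minimum of 10 reads, by gene list, with members in red and dashed lines at a size of 2. The member CD44 is in no list and is not drawn. Open symbols mark genes with 0 reads in a library, whose position is set by the 0.5 reads added. Most integrin activators lie between the dashed lines, whereas 8 of the 15 alpha chains lie beyond them.

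Over all the lists, 102 genes that are not members had enough reads. Of these, 14.7% (15 genes) were higher in REH and 9.80% (10 genes) in 697, beside 12.5% and 8.15% of all genes compared. Their median log2 ratio was -0.10, which became 0.20 with unscaled library totals. ITGAD, S1PR5 and CD82 were named after their values were seen.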

How the data were processed

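The authors deposited raw read counts per gene for 1 library of each line, not normalized or filtered. Per the study's methods, TruSeq libraries were sequenced on an Illumina NextSeq instrument and aligned with STAR to hg38, whereas the submitters' processing notes list hg19. The annotation used for counting was not given in the sources used here. The labels describe ribodepleted stranded libraries and the methods poly(A) purification. Reads fell evenly on both strands (50.1% and 50.2% on the gene's own strand in REH and 697), so counts that ignore strand were used. They leave out reads that overlap genes of opposite strands, and reads mapping to several places. Depth was 45188375 gene reads in REH and 41097497 in 697.

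Symbols, positions and exon lengths came from GENCODE 44 on GRCh38, by gene ID. Of the IDs, 51996 matched and 5777 did not. RASSF5, CD24 and PECAM1 had no matching ID and were not analysed here, and some genes of the lists are not reported here. TMM factors (1.11 for REH, 0.899 for 697) were computed with edgeR 4.0.16 in R 4.3.3 over 19145 genes (at least 10 reads in either library), and 0.5 reads were added for ratios. Ratio intervals are Clopper-Pearson intervals and level intervals are Wilson intervals, both at 95%. A fold against 0 reads is computed at a floor of 3 reads and leaves out the counting error of the other library. The ratio interval covers that error. In data simulated with counting error only, 100% of 200 genes with a log2 ratio of 3 were recovered. There, 28 of 18353 unchanged genes passed the threshold. The changed genes had at least 50 expected reads. No spread between cultures was simulated, so these shares are not error rates of the real comparison. Python 3.11.15 was used for the remaining steps.

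The members and gene lists were chosen with earlier results of these data known, and the 12 partners of ITGB1 were listed after the counts were seen. Named were all members, fixed partner chains, ligands and regulators (ITGB2, ITGB4, ITGB7, CXCL12, CCL19, CCL21, VCAM1, FN1, ICAM1, KLF2 and CD69), and in each list up to 4 genes per direction with at least 100 reads in a library and a log2 ratio reaching 2 in size, by the bound of the interval nearest 0. Some genes of abundant or unchanged level (S1PR4, TLN1, FERMT3) were added after their values were seen. Alternatives were DESeq2 1.42.0 size factors, TMM factors from protein-coding genes, unscaled totals, a minimum of 1 or 50 reads, 5 reads added, a threshold of 1, each strand column, and the longest transcript as gene length.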

Additional observations from a re-analysis of the deposited data

Results flagged for a closer look

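The separate strand columns, used in the comparisons only as alternatives, held reads for genes of these families that the column of either strand left out. The genes overlap annotated genes of the opposite strand, from which their reads cannot be told apart. CXCR5, the homing receptor for B-cell follicles, had 1 read in REH and 0 in 697 on either strand, but up to 204 in REH and 133 in 697 in a single strand column. ILK, an adaptor of the beta chain tail, had 88 and 62 reads, against up to 1947 and 1370. HAS3, a hyaluronan synthase, had 99 and 64 reads, against up to 745 and 505. LAMA5 had 76 and 109 reads, against up to 496 and 356. ACKR4 had 8 and 3 reads, against up to 87 and 64. ICAM4 had 0 reads in REH, against up to 63.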

How the results depend on the processing

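No replicate could be left out, and no pairing exists. No paired analysis was possible because only 1 library represents each line. None of the 9 members changed sign under any alternative in which it was compared. The 5 members higher in 697 became 4 with unscaled totals, a minimum of 50 reads, 5 reads added or either strand column. They became 7 at a threshold of 1. Over all 19145 genes compared, 3336 were then higher in 697 and 4293 in REH, against 1560 and 2396 at the main threshold. With a minimum of 50 reads these counts were 1036 and 1477, and with a minimum of 1 read 4410 and 3592. The read minimum also changes the number compared. With unscaled totals they were 1318 and 2795, and with 5 reads added 1338 and 1614. On the strand of the gene they were 1397 and 2076, and on the opposite strand 1426 and 2060. The larger moves of the other values are grouped here, and small changes of other counts are left out. With unscaled totals, the median log2 ratio of the 9 members was -1.95, and the chemokine receptors had 2 genes higher in REH and 0 higher in 697. With 5 reads added the median was -1.71. It was -1.88 on the strand of the gene and -2.05 on the opposite strand, where CD44 had fewer than 10 reads and dropped out. With a minimum of 50 reads, 0 members were higher in REH, 2 alpha chains were higher in REH and 1 gene of sphingosine 1-phosphate receptors and metabolism was higher in 697. With a minimum of 1 read, 4 chemokine receptors were higher in REH and 2 higher in 697, and 1 beta chain was higher in 697. On the strand of the gene, 2 chemokine receptors were higher in REH, and on the opposite strand, 4 ligands were higher in REH and 2 in 697. At a threshold of 1, 2 members were higher in REH. At this threshold the genes higher in REH were 4 chemokine receptors, 4 activators, 5 ligands and 3 regulators, and those higher in 697 were 2 chemokine receptors, 4 sphingosine 1-phosphate genes, 3 beta chains, 2 ligands, 4 regulators and 5 selectins and other homing molecules. Per kb of the longest transcript, 7 of the 9 members kept their rank in REH and 4 in 697. Depth limits CD44, with 2 and 11 reads, and ITGAL, with 46 and 0.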
